A study of Homo sapiens with 8 samples.

Results

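The genes described here are 31 genes of S phase and DNA replication, chosen by symbol and matched to the Entrez identifiers of the authors' table. All 31 were found among its 18478 genes. The study sequenced RNA from A2058 and from C8161, both of them long-established lines of human melanoma. In each line, 1 arm carried ATF3 introduced by retroviral transduction and the other carried the corresponding neomycin control, and the medium of every culture was DMEM plus 10% fetal bovine serum. By the labels, each A2058 arm is 1 library and each C8161 arm is 3, giving 8 in all, with no word on whether pools or clones were used. The table holds 1 RPKM value per gene for each A2058 library and 1 combined value for each C8161 arm. RPKM is a gene's read count scaled to transcript length and to library depth, so levels can be set side by side between genes. With 1 value per arm there was no replicate spread and no test was run. Every difference below describes these columns only.

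Replication begins when the origin recognition complex, CDC6 and CDT1 load the MCM2-7 helicase onto DNA in G1. Kinases then recruit CDC45 and the GINS complex to activate it, and polymerases with their sliding clamp PCNA copy the strands while other enzymes supply nucleotides and rebuild chromatin. Most of these genes are transcribed together at the G1/S boundary by E2F factors once the retinoblastoma protein releases them, and in tumour cells their RNA serves as a sign of proliferation. In bulk RNA, fewer cells in S phase and less RNA per cell cannot be told apart.

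The E2F words in the promoters are shown first, since of the words searched they had the largest ratio of their share in these genes to their share in expressed genes. Windows from 250 bases before to 50 bases after the transcript start were taken from RefSeq (GRCh38.p14) and were found for 27 of the 31 genes, all but MCM4, MCM5, CCNE2 and E2F8. The words searched on both strands were TTTGGCGC, TTTCCCGC, TTTGCCGC and TTTCGCGC. At least 1 of them occurred in 15 of the 27 genes (55.6%), against 6.76% of the 10180 genes of the table that reached 1 RPKM in any column and had a window. In 13 of these genes a word was centred within 60 bases of a start. The stretches below lie upstream of the start on the gene's own strand, with the words in capitals. They were chosen to show an overlapping double word (MCM6), a promoter of E2F itself (E2F1), and single words in a licensing factor, the clamp and a nucleotide enzyme. MCM10 is added because it was the only one of the 27 with the word TGACGTCA, the cAMP response element to which ATF and CREB proteins bind.
MCM6, chr2:135876507-135876610, minus strand: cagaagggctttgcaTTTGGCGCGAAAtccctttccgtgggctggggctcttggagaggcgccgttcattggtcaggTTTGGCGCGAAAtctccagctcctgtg
E2F1, chr20:33686386-33686433, minus strand: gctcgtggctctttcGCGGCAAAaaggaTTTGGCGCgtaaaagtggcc
CDT1, chr16:88803739-88803776, plus strand: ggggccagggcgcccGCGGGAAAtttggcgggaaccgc
PCNA, chr20:5126659-5126696, minus strand: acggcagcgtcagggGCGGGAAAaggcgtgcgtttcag
TYMS, chr18:657599-657636, plus strand: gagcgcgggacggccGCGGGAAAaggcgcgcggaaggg
MCM10, chr10:13161514-13161551, plus strand: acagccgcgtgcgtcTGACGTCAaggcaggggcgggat

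**Figure D1:**
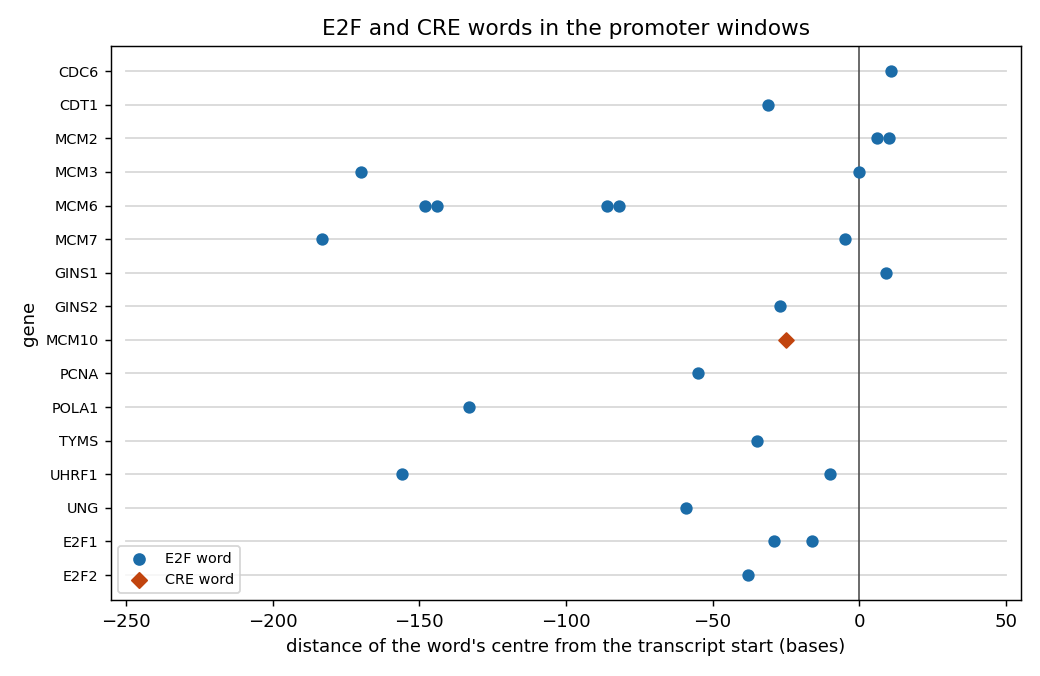
Position of each E2F word and of the single cAMP response element word (CRE) in the windows of the genes that hold one, given as the distance of the word's centre from the transcript start in bases. The x axis runs from 250 bases upstream to 50 bases downstream, each grey line is a gene, and the 4 overlapping words of MCM6 form 2 pairs.

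The cAMP response element word was present in 3.7% of the 27 genes and in 3.77% of the expressed genes with a window. The related AP-1 word TGANTCA was found in 1 of the 27, GINS1, against 7.15% of expressed genes. CCAAT, bound by NF-Y, occurred in 17 of 27 (63%, against 43.3%), and the GC box GGGCGG in 22 of 27 (81.5%, against 77.7%). The cell cycle homology word TTTGAA, a mark of late cell cycle promoters, occurred in 2 of 27 (7.41%, against 13.7%). A list of 30 G2 and M phase genes, compiled for this comparison, had the other arrangement. Of its 24 genes with a window, 17 held TTTGAA (70.8%) and 2 held an E2F word (8.33%). A list of 74 other replication and G1/S genes resembled the 31, with an E2F word in 24 of 61 (39.3%). These are matches of letters within short windows and do not show that a factor was bound.

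ATF3, the gene introduced, was at 4.71 RPKM with ATF3 and 1.22 RPKM in the control in A2058, and at 62.6 and 4.76 RPKM in C8161. The lines differed in melanoma state. The melanocyte genes SOX10, PMEL and DCT were at 254, 806 and 308 RPKM in control A2058 and at 0.06, 0.18 and 0.03 RPKM in control C8161, where AXL, EGFR and SOX9 of a 4-gene list of dedifferentiated melanoma were at 280, 46.2 and 4.48 RPKM against 11.4, 0.07 and 0.08 RPKM in A2058. NGFR, the fourth, went the other way, at 0.06 against 2.93 RPKM. Defining melanocyte transcripts were thus near 0 in C8161. The defining markers of keratinocytes, KRT5 and KRT14, and of leukocytes, PTPRC and CD14, were all below 0.5 RPKM in every column. Of the fibroblast and endothelial markers, COL1A1 was at 4.99 RPKM with ATF3 and 3.97 RPKM in the control in A2058, and CDH5 at 18.1 and 8.86 RPKM in C8161, 2.05-fold higher with ATF3. PECAM1, VWF, COL1A2 and PDGFRB were below 0.5 RPKM throughout. The part of these genes in the results below was not tested. The spacing of low values in the A2058 columns gave an approximate depth of 17900000 reads with ATF3 and 18700000 in the control. The coherence of the spacing with whole reads, which is 1 for an exact match, was only 0.33 and 0.345. It was 0.25 and 0.27 in the combined C8161 columns, the latter at the edge of the range searched, and their depth was taken as unknown.

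All 31 genes were expressed in both lines. Their median was 38.5 RPKM in control A2058 and 42.1 RPKM in control C8161, above the medians of 10.9 and 9.12 RPKM of the 12493 genes that reached 1 RPKM in any column. The lowest in control A2058 was E2F8 at 2.31 RPKM and the highest MCM7 at 163 RPKM, a 70.6-fold range. In control C8161 the range ran from E2F2 at 2.26 RPKM to RRM2 at 139 RPKM. In 28 of the 31 genes every column was at 5 RPKM or more, and the exceptions were CCNE1, E2F2 and E2F8. E2F2 and E2F8 had the lowest levels of all members in both control columns.

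**Figure D2:**
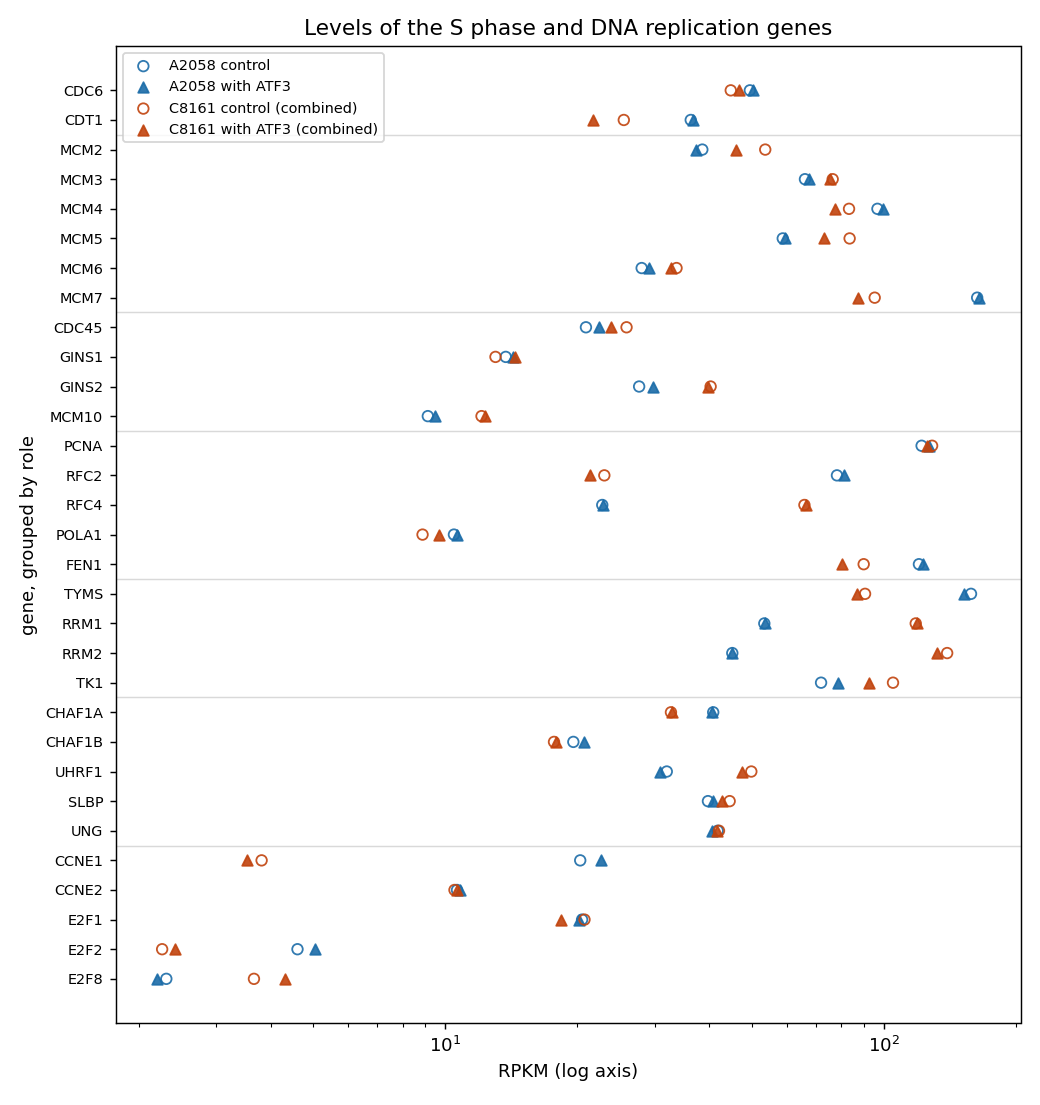
RPKM of each gene in the 4 columns on a log axis, grouped by role, with open circles for control and filled triangles for ATF3, blue for A2058 and red for C8161. Within a line the circle and triangle of a gene lie close together. The lines are apart for several genes, among them RFC2, RFC4, RRM1, RRM2, TYMS, MCM7, CCNE1, E2F2 and E2F8.

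The first comparison asked how these genes differed between ATF3 and control cells. The differences were small in both lines, with most members slightly higher in A2058 and most slightly lower in C8161. ATF3 itself was at 4.71 RPKM in the A2058 ATF3 arm and at 62.6 RPKM in that of C8161. The former was near the 4.76 RPKM of the C8161 control. Line and ATF3 level therefore cannot be told apart wherever the ratios of the 2 lines are contrasted. Differences are given as log2(RPKM + 1) with ATF3 minus control, a scale that understates those of low genes. A log2 ratio of 0.2, about 14.9% on that scale, was used as the size to report. No member reached it in A2058, where 7.74% of 11883 genes did (4.23% higher and 3.51% lower). In C8161, 2 of 31 members lay at −0.2 or lower, where 6.63% of 10941 genes did, and none lay at 0.2 or higher (5.33% of genes, or 12.0% in either direction). The share of members past this size in either direction, none in A2058 and 6.5% in C8161, was below that of all genes in both lines. For the lower direction alone it was close to that of all genes in C8161. Most members are above the usual level, so the shares were also taken among genes that reached 5 RPKM in either column. There, 4.13% of genes passed in A2058, with 0 of 30 members, and 12.55% in C8161, with 2 of 28. Counts this small were not tested and are not read as a result about the members.

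Direction was more uneven than size. In A2058, 23 of 31 members (74.2%) were above 0, against 51.3% of all genes, and 8 were below 0, against 48.1%, with a median log2 ratio of 0.02 against 0.00. In C8161, 20 of 31 (64.5%) were below 0, against 47.3% of all genes, and 11 were above 0, against 52.0%, with a median of −0.04 against 0.01. Members above 0 in A2058 and below 0 in C8161 numbered 14 of 31, or 45.2%, against 25.4% of all genes. The lines share no column, so these are separate measurements, but genes of one pathway vary together and the counts are not those of independent genes. Across the 31 members the ratios of the lines were unrelated, with a Pearson r of −0.03. The count of 14 therefore adds little to the counts within each line. The sum over the 31 genes was 1549 RPKM with ATF3 against 1522 RPKM in A2058, 1.77% higher. In C8161 it was 1506 against 1585 RPKM, where it decreased by 4.99%. The totals over all genes differed in the same directions. They were 476236 RPKM with ATF3 against 470633 RPKM in A2058, and 472590 against 481302 RPKM in C8161. The member sums were not scaled to these totals.

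**Figure D3:**
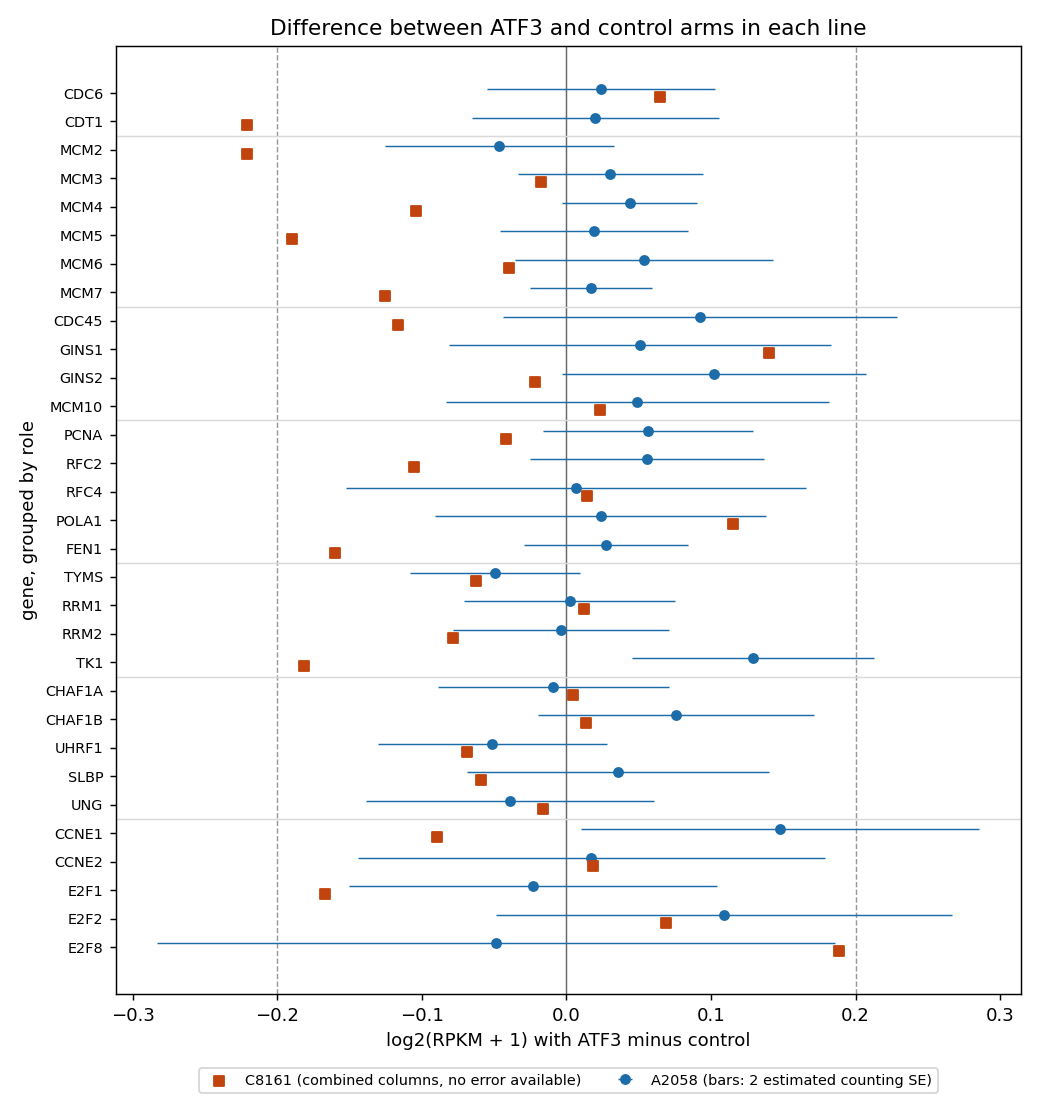
Difference of log2(RPKM + 1) between ATF3 and control for each gene, with blue circles for A2058, red squares for C8161 and dashed lines at −0.2 and 0.2. Bars on the A2058 points span 2 estimated counting standard errors to each side, and only those of TK1 and CCNE1 leave 0 outside. The C8161 points of all 6 MCM2-7 genes lie below 0.

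The 2 licensing factors differed between the lines. CDT1, which brings the helicase to origins and is destroyed in S phase, was at 21.8 RPKM with ATF3 against 25.5 RPKM in C8161 (log2 ratio −0.22) and at 36.8 against 36.3 RPKM in A2058 (0.02). CDC6, the ATPase that works with it, was at 46.8 against 44.8 RPKM in C8161 (0.06) and at 50.3 against 49.5 RPKM in A2058 (0.02). CDT1 was thus 1 of the 2 members past 0.2, while its partner was on the other side of 0. The CDT1 inhibitor geminin, GMNN, was at 46.4 against 48.3 RPKM in C8161 and at 64.6 against 58.9 RPKM in A2058.

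The MCM2-7 helicase subunits were all lower with ATF3 in C8161 and, except MCM2, all slightly higher in A2058. MCM2 was at 45.9 RPKM with ATF3 against 53.6 RPKM in C8161 (log2 ratio −0.22) and at 37.3 against 38.5 RPKM in A2058 (−0.05). MCM5 was at 73.1 against 83.5 RPKM in C8161 (−0.19) and at 59.6 against 58.8 RPKM in A2058 (0.02). MCM7 was at 87.3 against 95.3 RPKM in C8161 (−0.13) and at 165 against 163 RPKM in A2058 (0.02). These 3 subunits, with MCM4, carried most of the C8161 difference. MCM4 was at 77.4 against 83.3 RPKM in C8161 (−0.10) and at 99.7 against 96.7 RPKM in A2058 (0.04). MCM3 was at 75.5 against 76.4 RPKM in C8161 (−0.02) and at 67.5 against 66.1 RPKM in A2058 (0.03). MCM6 was at 32.7 against 33.7 RPKM in C8161 (−0.04) and at 29.1 against 28.0 RPKM in A2058 (0.05). Summed over the 6 subunits, the C8161 level was 392 RPKM with ATF3 against 426 RPKM, a value that decreased by 7.96%. The A2058 level was 458 against 451 RPKM, 1.55% higher. The totals over all genes, given above, differed in the same directions. Of the MCM2 exonic bases, 23.6% overlap exons of other genes, mostly an antisense transcript, and 8.94% of those of MCM7 overlap AP4M1 on the other strand. The strand setting of the counting is not given in the sources used here, so reads there cannot be assigned.

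The helicase activators were all slightly higher with ATF3 in A2058 and split in C8161. CDC45, the helicase cofactor, was at 22.4 RPKM with ATF3 against 20.9 RPKM in A2058 (log2 ratio 0.09) and at 23.8 against 25.9 RPKM in C8161 (−0.12). GINS1 was at 14.3 against 13.7 RPKM in A2058 (0.05) and at 14.4 against 13.0 RPKM in C8161 (0.14). GINS2, its partner in the GINS tetramer, was at 29.8 against 27.7 RPKM in A2058 (0.10) and at 39.7 against 40.3 RPKM in C8161 (−0.02). MCM10, which helps start the helicase and carries the cAMP response element word, was at 9.47 against 9.12 RPKM in A2058 (0.05) and at 12.3 against 12.1 RPKM in C8161 (0.02).

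Of the 5 clamp, clamp loader, polymerase and flap endonuclease genes, 3 were above 0 in A2058 and below 0 in C8161, and the other two were above 0 in both. PCNA, the sliding clamp, was at 127 RPKM with ATF3 against 122 RPKM in A2058 (log2 ratio 0.06) and at 125 against 129 RPKM in C8161 (−0.04). FEN1, the flap endonuclease of Okazaki fragments, was at 123 against 120 RPKM in A2058 (0.03) and at 80.4 against 89.9 RPKM in C8161 (−0.16). RFC2, a clamp loader subunit, was at 81.3 against 78.2 RPKM in A2058 (0.06) and at 21.4 against 23.04 RPKM in C8161 (−0.11). These are the 3 of opposite sign. RFC4, another clamp loader subunit, was at 22.9 against 22.8 RPKM in A2058 (0.01) and at 66.5 against 65.9 RPKM in C8161 (0.01). POLA1, the catalytic subunit of polymerase alpha, was at 10.7 against 10.5 RPKM in A2058 (0.02) and at 9.69 against 8.87 RPKM in C8161 (0.12).

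Among the genes of nucleotide supply, TK1 stood apart. TK1, the thymidine salvage kinase, was at 78.7 RPKM with ATF3 against 71.9 RPKM in A2058 (log2 ratio 0.13) and at 92.4 against 105 RPKM in C8161 (−0.18). It was the single member past 0.1 in both lines with opposite signs. TYMS, which makes dTMP, was at 153 against 158 RPKM in A2058 (−0.05) and at 86.7 against 90.6 RPKM in C8161 (−0.06). RRM1, the large subunit of ribonucleotide reductase, was at 53.5 against 53.4 RPKM in A2058 (0.00) and at 119 against 118 RPKM in C8161 (0.01). RRM2, the small subunit made in S phase, was at 45.0 against 45.1 RPKM in A2058 (0.00) and at 132 against 139 RPKM in C8161 (−0.08). The TYMS and RRM2 values are less certain, since 39.2% of the TYMS exonic bases overlap ENOSF1 on the opposite strand and 29.6% of the 50-base stretches of the longest RRM2 transcript occur in other genes, mostly AC007240.1.

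The 5 genes of chromatin assembly, maintenance methylation, histone mRNA and base repair had a median log2 ratio of −0.01 in A2058 and −0.02 in C8161. CHAF1A, the large subunit of chromatin assembly factor 1, was at 40.6 RPKM with ATF3 against 40.8 RPKM in A2058 (log2 ratio −0.01) and at 32.8 against 32.7 RPKM in C8161 (0.00). CHAF1B, its partner, was at 20.7 against 19.6 RPKM in A2058 (0.08) and at 17.9 against 17.7 RPKM in C8161 (0.01). UHRF1, which recruits the maintenance DNA methyltransferase, was at 30.8 against 32.0 RPKM in A2058 (−0.05) and at 47.5 against 49.9 RPKM in C8161 (−0.07). UHRF1 shares 25.7% of its 50-base stretches with other genes, mostly AC112777.1. SLBP, which binds the stem-loop of histone mRNA, was at 40.7 against 39.7 RPKM in A2058 (0.04) and at 42.7 against 44.5 RPKM in C8161 (−0.06). UNG, which removes uracil from new DNA, was at 40.6 against 41.8 RPKM in A2058 (−0.04) and at 41.6 against 42.1 RPKM in C8161 (−0.02). None of the 5 reached 0.1 in either line.

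The G1/S regulators held both the highest and some of the lowest ratios. CCNE1, the cyclin E that activates CDK2, was at 22.6 RPKM with ATF3 against 20.3 RPKM in A2058 (log2 ratio 0.15) and at 3.52 against 3.81 RPKM in C8161 (−0.09). CCNE2, the other cyclin E, was at 10.8 against 10.6 RPKM in A2058 (0.02) and at 10.6 against 10.5 RPKM in C8161 (0.02), and 37.1% of its exonic bases overlap other genes, nearly all INTS8 on the opposite strand. E2F1, an activator of the whole programme, was at 20.2 against 20.5 RPKM in A2058 (−0.02) and at 18.4 against 20.8 RPKM in C8161 (−0.17). The ratio of CCNE1 was the highest of the members in A2058. E2F2, another activator, was at 5.04 against 4.60 RPKM in A2058 (0.11) and at 2.42 against 2.26 RPKM in C8161 (0.07). E2F8, an atypical E2F that represses the same targets, was at 2.20 against 2.31 RPKM in A2058 (−0.05) and at 4.31 against 3.66 RPKM in C8161 (0.19), the highest member ratio in C8161. In C8161, E2F1 thus lay below 0, whereas E2F2 and E2F8 lay above it, so activators were on both sides. With trends with GC content and length removed, as described below, the C8161 ratios were −0.05 for E2F1, 0.12 for E2F2 and 0.16 for E2F8.

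Counting error was estimated for A2058 from the depth above and RefSeq transcript lengths. The members had between 152 estimated reads (E2F8) and 9420 (MCM7) in the control library. The counting standard error of the log2 ratio ranged from 0.02 to 0.12. Only TK1, at 0.13 with a standard error of 0.04, and CCNE1, at 0.15 with 0.07, lay more than 2 such errors from 0. These are 6.5% of the members, against 17.7% of 11753 genes. The other 29 A2058 differences were within 2 such errors. The estimate covers counting alone, and the spread between cultures was not measured.

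In C8161 the member ratios moved with GC content. Across the 31 members, Pearson's r of the C8161 ratio with the GC content of the longest transcript was −0.70, and across 10860 genes of the same columns it was −0.40. In A2058 it was 0.03 across the members. Of the 8 members of 55% GC or more, 6 were below 0 in C8161, and of the 11 under 46%, 8 were above 0. CDT1 has 64.9% GC, TK1 62.8%, E2F1 62.5%, MCM2 58.1% and MCM5 57%. After the trends with GC content and length were removed over all genes, the log2 ratio of CDT1 was −0.09, that of TK1 −0.05, that of E2F1 −0.05, that of MCM2 −0.16 and that of MCM5 −0.15. No member then reached 0.2 in C8161. The median over the members stayed at −0.04 with 24 of 31 below 0, and all 6 MCM2-7 genes were still below 0, with a median of −0.10. Some relation with GC content remained among the members, with a Pearson r of −0.30 and a Spearman rho of −0.39 for the trend-removed ratio, where r over all genes was 0.03.

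**Figure D4:**
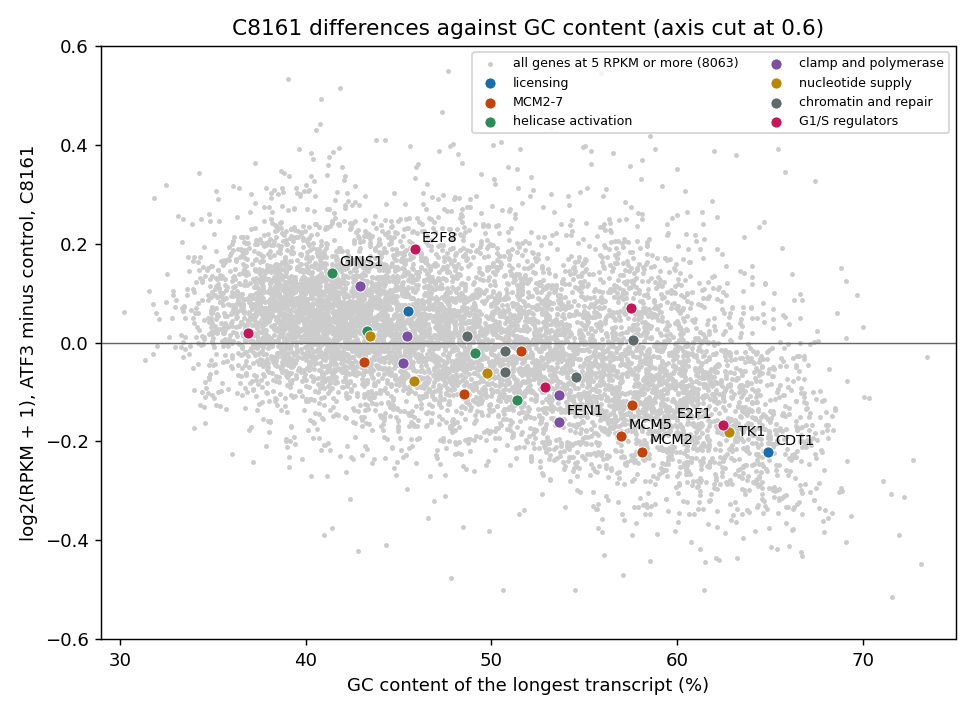
Difference of log2(RPKM + 1) between ATF3 and control in C8161 against the GC content of the longest transcript in percent, with members coloured by role over all genes at 5 RPKM or more in grey, and with the vertical axis cut at 0.6. The members follow the downward slope of the grey points, with CDT1, TK1 and E2F1 at high GC content and MCM2 and MCM5 among the lowest at theirs.

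Splitting the members by the E2F word gave similar medians. The 15 genes with the word had a median log2 ratio of 0.02 in A2058 and −0.04 in C8161, and the 12 with a window and no word had medians of 0.04 and −0.07. Both of the members past 0.2 in C8161, CDT1 and MCM2, hold the word. All 5 members that differed most between the lines, given below, do not. These counts are small and are not read as a result. Only exact words in short windows were searched, so lack of a match does not show lack of an E2F site.

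The rest of the pathway was read from the list of 74 other replication and G1/S genes. In A2058, 3 of 74 reached 0.2, where 4.23% of all genes did, and none −0.2, where 3.51% did. These were the CDK inhibitor CDKN1A (p21), at 17.98 RPKM with ATF3 against 14.8 RPKM (log2 ratio 0.26), POLE2, a polymerase epsilon subunit, at 7.02 against 5.87 RPKM (0.22), and the dUTPase DUT at 54.2 against 47.1 RPKM (0.20). In C8161, 3 of 73 were past the size, where 12.0% of all genes were. CDKN1A was the single one past 0.2, at 5.57 against 4.22 RPKM (0.33). On the other side, POLD1, the catalytic subunit of polymerase delta, was at 19.9 against 24.7 RPKM (−0.29), and the thymidylate kinase DTYMK at 70.6 against 82.0 RPKM (−0.21). With the GC and length trends removed, POLD1 was at −0.17 and DTYMK at −0.11 in C8161, and POLE2 was at 0.19 and DUT at 0.17 in A2058, all within 0.2. CDKN1A was then at 0.24 in A2058 and 0.40 in C8161. CDKN1A was the only gene of the 2 lists of replication and G1/S genes that was past 0.2 in both lines. CDKN1B (p27) was at 15.3 against 14.5 RPKM in C8161 and at 20.8 against 20.7 RPKM in A2058, and RB1 at 15.3 against 14.9 RPKM and at 5.31 against 5.95 RPKM. CDKN2A was at 99.2 against 100.4 RPKM in A2058 and at 0.03 RPKM with ATF3 in C8161, where it is listed at 0 in the control.

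The G2 and M phase list lay on the other side of 0 from the S phase genes in C8161. Of its 30 genes, 23 were above 0, against 52.0% of all genes, with a median log2 ratio of 0.05, and 4 were past 0.2, against 5.33% of all genes. They were NUF2 and CENPE, which act at the kinetochore, at 29.3 against 23.5 RPKM (0.30) and 5.36 against 4.20 RPKM (0.29), the proliferation marker MKI67 at 35.1 against 28.5 RPKM (0.29) and CENPF at 16.2 against 14.0 RPKM (0.20). In A2058 the median was 0.01, and CENPF alone was past the size, at 16.5 against 19.4 RPKM (−0.22). Over all genes the ratio was also related to transcript length, with a Spearman rho of 0.204 in C8161 and −0.225 in A2058. MKI67, CENPF and CENPE have the longest transcripts of this list, whereas that of NUF2 has 1969 bases. The lists differ in GC content, with a median of 43.8% for G2 and M and 50.7% for the S phase genes. With the trends removed, the C8161 medians were 0.05 and −0.04, and CENPF was within 0.2 in both lines, at 0.14 in C8161 and −0.17 in A2058. The difference between the lists was not tested.

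The second comparison set the lines against each other, first in the control arms and then in the ATF3 arms, which share no column. Of the 31 S phase genes, 5 differed 2-fold or more on the log2(RPKM + 1) scale in both pairs of columns. A log2 difference of 1 or more in both arms was found for 3 members higher in C8161, against 8.8% of 12260 genes, and for 2 lower in C8161, against 19.3% of genes. The same 5 genes make up the counts in each pair alone, 3 higher and 2 lower, where 9.36% and 20.7% of genes in the control arms (30.0% in all) and 9.92% and 21.4% in the ATF3 arms (31.3% in all) passed. The shares of members, 9.7% and 6.5%, were thus near the background for the higher and below it for the lower. The members' median log2 difference was 0.02 in the control arms, where that of all genes was −0.19. The difference had the same sign in both arms in 28 of 31 members. This is not particular to these genes. Between the 2 pairs of arms the differences had a Pearson r of 0.99 across the members and 0.991 across all 12260 genes.

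Ribonucleotide reductase and the clamp loader held 4 of the 5 genes. RRM2 was at 139 RPKM in control C8161 against 45.1 RPKM in control A2058, 3.09-fold higher, and 2.93-fold higher in the ATF3 arms. RRM1 was at 118 against 53.4 RPKM, 2.22-fold higher, and 2.23-fold higher in the ATF3 arms. Both subunits of the enzyme were thus higher in C8161, and their ratio was near 1 in both lines (1.18 RRM1 per RRM2 in control A2058 and 0.85 in control C8161). RFC4 was at 65.9 against 22.8 RPKM, 2.89-fold higher in C8161, while RFC2 was at 23.04 against 78.2 RPKM, 3.39-fold higher in A2058. The ratio of RFC2 to RFC4, which are partners at equal number in the loader, was 3.43 in control A2058 and 0.35 in control C8161, and 3.55 and 0.32 in the ATF3 arms.

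CCNE1, the fifth of them, had the largest line difference of the members. It was at 20.3 RPKM in control A2058 against 3.81 RPKM in control C8161, 5.33-fold higher, and 6.42-fold higher in the ATF3 arms. CCNE2 was level, at 10.6 and 10.5 RPKM. The main cyclin E transcript was therefore CCNE1 in A2058, at 1.91 per CCNE2, and CCNE2 in C8161, at 0.36 CCNE1 per CCNE2. Of the E2F factors, E2F1 was level at 20.5 and 20.8 RPKM, E2F2 was 2.04-fold higher in A2058 and E2F8 was 1.58-fold higher in C8161.

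**Figure D5:**
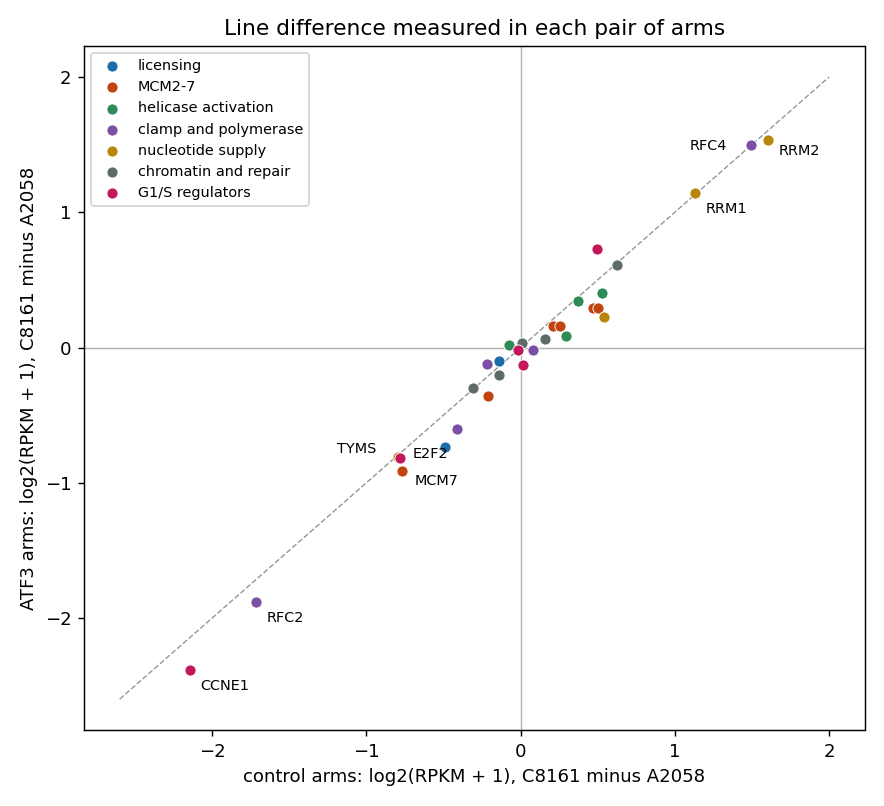
Log2(RPKM + 1) in C8161 minus A2058 for each gene, from the control arms on the x axis and the ATF3 arms on the y axis, coloured by role, with equality as a dashed line. RRM1, RRM2 and RFC4 lie at the upper end and CCNE1 and RFC2 at the lower end, and the points keep close to the line.

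Smaller differences between the lines were found within complexes. MCM7 was at 163 RPKM in control A2058 against 95.3 RPKM in control C8161, 1.71-fold higher, while MCM2 and MCM5 were 1.39-fold and 1.42-fold higher in C8161. The 6 MCM2-7 transcripts spanned a 5.82-fold range in control A2058 and a 2.83-fold range in control C8161, with MCM6 lowest and MCM7 highest in all 4 columns. TYMS was 1.74-fold and FEN1 1.34-fold higher in control A2058, and CDT1 1.42-fold. UHRF1 was 1.56-fold, TK1 and GINS2 each 1.46-fold and MCM10 1.33-fold higher in control C8161. The TK1 difference was smaller in the ATF3 arms, at 1.17-fold. PCNA, GINS1, UNG, CCNE2 and E2F1 differed by less than 6% between the control arms.

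The position of a member on its chromosome was set beside its line difference. RFC2 (chromosome 7, 74231502 to 74254399, GRCh38) and MCM7 (chromosome 7, 100092728 to 100101397) lie on the chromosome with the lowest median line difference of all, −0.97 over 589 genes against −0.18 over 12308. Of 12372 genes compared in the control arms, 59.3% were lower in C8161 and 40.7% higher, and the neighbour counts below stand beside these shares. Of the 67 expressed genes within 2 Mb of MCM7, 66 were lower in C8161 than in A2058, as were 33 of 35 around RFC2. RFC4 (chromosome 3, 186789900 to 186806482) lies on the chromosome with the highest median, 0.21, and 15 of its 18 neighbours were higher in C8161. RRM2 (chromosome 2, 10122568 to 10211010) had 16 of 21 neighbours higher in C8161, and RRM1 (chromosome 11, 4094685 to 4138932) 11 of 20. CCNE1 (chromosome 19, 29811991 to 29824312) had 5 of 7 neighbours lower, with a median of −0.39 against its own −2.15. Other members went against their neighbours. TYMS was at −0.80 in the control arms with a neighbour median of 0.39. TK1 was at 0.54 with 37 of 42 neighbours lower in C8161, and UHRF1 at 0.62 with 54 of 71 lower. Across the 31 members, the difference of a gene and the median of its neighbours had a Pearson r of 0.45 and a Spearman rho of 0.34. The signs matched in 20 of 31, with no such share over all genes to set beside it. Members on one chromosome share neighbours, and this relation is a description.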

How the data were processed

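Total RNA of 2 melanoma lines was sequenced in 8 libraries. The authors deposited RPKM values per Entrez gene with 2 decimals, per the file headers, in 4 columns, of which the C8161 columns combine the 3 libraries of an arm (as a mean or as pooled reads, not stated). Per the submitters' processing notes, the tools were Bowtie2 and RSEM and the build hg38. The annotation, filters and strandedness used are not given in the sources used. Symbols and coordinates came from RefSeq (GRCh38.p14, the same assembly), found for 18156 of 18478 identifiers, and length and GC content from GENCODE 29 (17847 genes).

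The members and lists were chosen with earlier results of these data known. Log2(RPKM + 1) differences were taken where either column of a pair reached 1 RPKM, with Python 3.11.15, numpy 2.4.6, pandas 2.3.3 and statsmodels 0.14.6, and checked on simulated data. Members are all named. Other genes of the lists are named at a log2 ratio of 0.2 with a mean of at least 2 RPKM, and CDKN1A, CDKN1B, CDKN2A and RB1 always; GMNN and the genes named between the lines in the closing section were chosen after their values were seen. Alternatives were a pseudocount of 0.1, no minimum or 5 RPKM, quantile normalization, median centring, removal of GC and length trends (lowess, fraction 0.3) and other sizes. Depth in A2058 came from the spacing of low values, searched between 12.5 and 40 reads per RPKM and kilobase (a lower limit set after smaller spacings were seen to follow the shape of the values), in genes with 1 RefSeq transcript of 400 to 1500 bases. The planned motif search in proteins was not run. The table left no value column unused. One gene of the lists is not reported here.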

Additional observations from a re-analysis of the deposited data

Results flagged for a closer look

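TK1 was the single S phase gene whose log2 ratio with ATF3 passed 0.1 in both lines with opposite signs. It was 0.13 in A2058 and −0.18 in C8161, with 1 value per arm, so the difference between the lines was not tested. The ATF3 level also differed between the lines and cannot be told apart from line here. With the GC and length trends removed, the ratios were 0.10 and −0.05.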

How the results depend on the processing

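No paired analysis was possible because the table gives 1 combined value for each C8161 arm and A2058 has 1 library per arm. For the same reason no replicate was left out. The median member log2 ratio kept its sign in both lines under all alternatives run. It was 0.02 to 0.03 in A2058 and −0.03 to −0.05 in C8161. Members above 0 in A2058, 23 of 31, numbered 20 with quantile normalization and 21 with GC and length trends removed. Those below 0 in C8161, 20 of 31, numbered 19 and 24 under the same alternatives. The count of members past a log2 ratio of 0.2 in A2058 was 0 under every alternative that kept this size, and 4, all higher, at a size of 0.1, where 29.7% of all genes passed. In C8161 the count of 2 was 0 once GC and length trends were taken out and 0 at a size of 0.3; at 0.1 it was 13, with 10 lower and 3 higher, where 41.4% of all genes passed. A pseudocount of 0.1 gave 3, adding 1 higher gene. Between the lines the count of 5 was 11 in the control arms and 12 in the ATF3 arms at a size of 0.5, where 55.9% and 57.4% of all genes passed, and 5 or 6 under the other alternatives. Depth limits E2F8 most in A2058, with about 152 reads in the control, and the depth of the C8161 columns is unknown. That counting estimate rests on RefSeq lengths that may not be those the authors used.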

Other observations

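Among the 74 other replication and G1/S genes, some differed between the lines by a log2 of 1 or more in the control arms. In C8161, 5 were higher, where 9.36% of all genes were, and 6 lower, where 20.7% were. Both shares were below those of all genes, so the genes named here are examples and not a trait of the list. Those higher in control C8161 included CCND1, cyclin D1, at 151 RPKM against 22.7 RPKM in A2058, E2F7, the partner of E2F8 among the atypical repressors, at 22.4 against 5.17 RPKM, PRIM2, a primase subunit, at 22.3 against 7.89 RPKM, and RB1 at 14.9 against 5.95 RPKM. Lower were CDK2, the kinase of cyclin E, at 48.4 against 168 RPKM, CDKN1A at 4.22 against 14.8 RPKM, the helicase RECQL4 at 15.2 against 39.4 RPKM, ORC5 at 9.78 against 23.4 RPKM, RFC3 at 25.7 against 54.8 RPKM, and CDKN2A, which is listed at 0 against 100.4 RPKM. CCNE1 and CDK2, which form one kinase, were thus both lower in C8161, and both E2F7 and E2F8 were higher.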
